A study of Mus musculus with 4 samples.

Results

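Matricellular and remodelling glycoproteins are secreted or membrane glycoproteins, with a lectin and a proteoglycan among them, that cells place around themselves to change how they attach, move and repair tissue. A set of 10 such genes was followed, Thbs1, Fn1, Fstl1, Spp1, Sparc, Ecm1, Tgfbi, Lgals3, Gpnmb and Vcan, and 9 of the 10 were measured among 18782 genes. Spp1, the gene of osteopontin, was not analysed here. Each of the 9 had a single probe set annotated with its symbol alone. The genes were picked with the difference between the genotypes already known, so the differences of the 9 are given as a description and carry no test. Where a gene is said to meet or miss the threshold used over all genes, that too is only a description.

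The cells were alveolar macrophages sorted from the lungs of adult mice on a C57BL/6 background. KO mice were CD11c-cre/PPARgfl/fl, a genotype in which Cre under the CD11c promoter acts on floxed alleles of the gene of the nuclear receptor PPARγ, and their cells are labelled as arrested immature pre-alveolar macrophages. WT mice were PPARgfl/fl without the Cre, so both genotypes carried the floxed alleles and the WT arrays hold no Cre control. Cre driven by CD11c can also act in other CD11c-expressing cells. Each genotype had 2 arrays, and each array held RNA of cells pooled from 2 mice. The sort gate differed too: CD11b-low cells were taken from WT mice, but CD11b-high cells from KO mice, so genotype and gate cannot be told apart. In sorted pools, fewer cells of a type and less RNA per cell cannot be told apart either. The values were log2 expression values made with RMA, which gives every array the same distribution, with a median of 3.14 and a maximum of 12.11.

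In a healthy airspace, alveolar macrophages clear surfactant and debris with little inflammation. Monocytes and macrophages recruited to an injured lung are known for secreting fibronectin, thrombospondin 1 and versican, parts of a provisional matrix that other cells bind through integrins, CD44 and CD47. Matricellular proteins differ from collagens and elastin in that they signal to cells more than they bear load.

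The labels and the arrays were set side by side before the genes were read. Itgam, the gene of CD11b, was higher in KO by 5.76 ± 0.14 (SE), as the gates were set. Pparg differed by -0.06 ± 0.10, and since the position of its probes against the floxed exons is unknown, that level is no check of genotype. Of 17 alveolar macrophage markers, 6 were lower in KO, 1 was higher and 10 did not pass, 41.2% past the test beside 14.3% of all genes. The list includes Siglecf, Itgax and Ptprc, genes of proteins used in the sort gate, so their levels are not independent of the sort. Siglecf and Ptprc were among the lower ones. The lower ones included Krt79 (-6.19), Cidec (-5.67), Siglecf (-3.27) and Lpl (-1.22), while Lyz2, Cd68, Chil3 and Plet1 read 10.9 or more on every array of both genotypes. Marco (-2.62) and Fabp4 (-2.07) did not pass, though both KO arrays lay below both WT arrays in each. The higher one was Fabp5 (0.67). The KO cells, labelled as immature, thus carried part of the marker list at WT levels or near them and part of it far below. With limma, a linear model fitted over all genes, 0 of 11 fibroblast markers passed the test, and 1 of them, Thy1, had an unadjusted p under 0.05. Arrays of the same genotype correlated over genes with r = 0.995 (WT) or 0.996 (KO), and arrays of different genotype with r between 0.967 and 0.975.

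Of the 9 genes, 6 were higher in KO macrophages and 1 was lower by the rule used over all genes, an adjusted p under 0.05 in limma. Over all 18782 genes, 14.3% met that rule, 7.41% higher and 6.86% lower. Thbs1, Fstl1, Ecm1, Gpnmb, Fn1 and Vcan were the higher genes, and Sparc was the lower one. Tgfbi and Lgals3 did not meet it. The median difference of the 9 was 0.74 on the log2 scale, beside -0.015 for all genes. In 6 of the 9 both KO arrays lay above both WT arrays, which held for 25.3% of all genes, and in the other 3 both lay below, which held for 30.0%. The genotypes thus overlapped in 0 of the 9, and 55.3% of all genes had no overlap. Since the genes were chosen on this contrast, nothing is read from these shares.

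**Figure D1:**
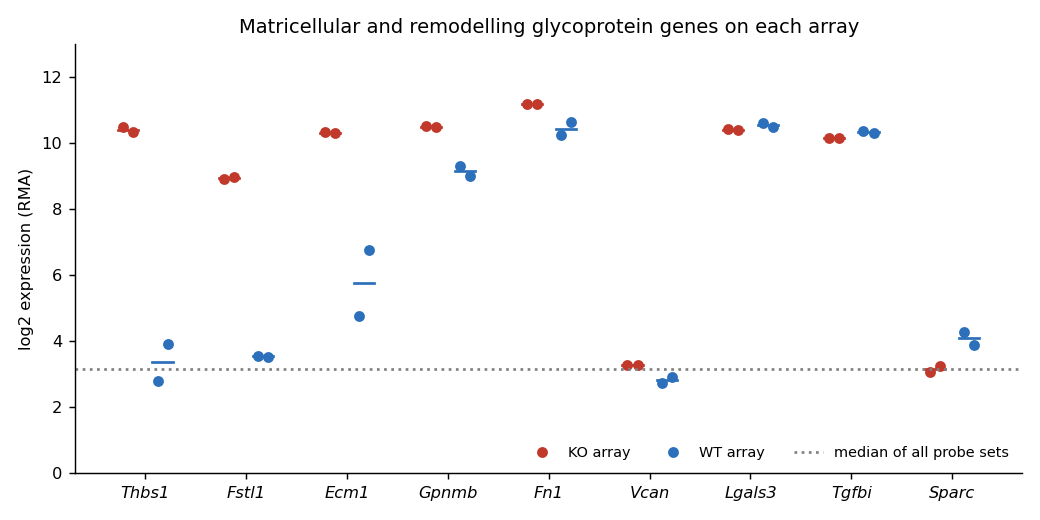
Log2 expression (RMA) of each of the 9 genes, with the 2 KO arrays in red left of the 2 WT arrays in blue. Short lines are group means and the dotted line is the median of all probe sets, 3.14. Thbs1, Fstl1 and Ecm1 show the wide steps, while Lgals3 and Tgfbi read above 10 on all 4 arrays.

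Thbs1 encodes thrombospondin 1, a secreted glycoprotein that binds CD36 and CD47 and can activate latent TGF-β. It read 10.47 and 10.32 in KO replicates 1 and 2, against 2.80 and 3.92 in WT replicates 1 and 2. The KO arrays were close together near the upper end of the scale, and the WT arrays lay on either side of the median of all probe sets. The difference, 7.04 ± 0.34 (SE), ranked 1 among all genes from the highest downwards and equals 131-fold on the linear scale. Values near the bottom of the RMA scale are compressed, so the fold of a gene that is dim in WT is uncertain.

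Fstl1 encodes follistatin-like 1, a secreted glycoprotein of the SPARC family. It read 8.91 and 8.95 in KO, against 3.53 and 3.53 in WT. The arrays of each genotype agreed to within 0.05, and the groups stood far apart. Its difference of 5.40 ± 0.09 (SE), 42.3-fold, ranked 7 among all genes.

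Ecm1 encodes extracellular matrix protein 1, a secreted glycoprotein that binds other matrix proteins. It read 10.32 and 10.31 in KO, against 4.76 and 6.76 in WT. The KO arrays were nearly equal while the WT arrays were 1.99 apart, and both WT arrays stayed well below both KO arrays. The difference was 4.56 ± 0.57 (SE), rank 25, or 23.5-fold. Without WT replicate 1 it was 3.56, or 11.8-fold, and without WT replicate 2 it was 5.55, or 46.9-fold.

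Gpnmb encodes a transmembrane glycoprotein of endosomes and lysosomes whose outer part can be shed. It read 10.50 and 10.49 in KO, against 9.29 and 9.01 in WT. All 4 arrays were bright, and both KO arrays lay above both WT arrays. The difference of 1.35 ± 0.12 (SE) equals 2.54-fold.

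Fn1 encodes fibronectin, which cells assemble into fibrils and hold through integrins. It read 11.18 and 11.17 in KO, against 10.23 and 10.64 in WT. This gene was bright in both genotypes, and its step between them, 0.74 ± 0.15 (SE) or 1.67-fold, stood beside a gap of 0.41 between the WT arrays. Without KO replicate 1, without KO replicate 2 or without WT replicate 1 the gene no longer met the threshold over all genes, while the difference stayed between 0.54 and 0.95 when any 1 array was left out.

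Vcan encodes versican, a chondroitin sulfate proteoglycan that binds hyaluronan. It read 3.28 and 3.28 in KO, against 2.72 and 2.89 in WT. All 4 values lay within 0.5 of the median of all probe sets, so the gene was dim in both genotypes. The difference was 0.48 ± 0.11 (SE), or 1.39-fold. It met the threshold without WT replicate 2 and with none of the other 3 arrays left out.

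Sparc encodes a collagen- and calcium-binding matricellular glycoprotein that is made mostly by fibroblasts and endothelial cells. It read 3.06 and 3.25 in KO, against 4.28 and 3.87 in WT. The KO arrays sat near the median of all probe sets and the WT arrays somewhat above it. The difference was -0.92 ± 0.16 (SE), which makes WT 1.90-fold higher, and it no longer met the threshold without KO replicate 1 or without KO replicate 2. Sparc and Fstl1, which belong to the same protein family, thus lay on opposite sides of WT.

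Tgfbi encodes a secreted protein that binds collagens and integrins and is induced by TGF-β. It read 10.14 and 10.16 in KO, against 10.35 and 10.31 in WT, a difference of -0.18 ± 0.09 (SE). Lgals3 encodes galectin 3, a lectin for β-galactosides that macrophages make in large amounts. It read 10.41 and 10.39 in KO, against 10.59 and 10.48 in WT, a difference of -0.14 ± 0.10 (SE). Both genes were bright on all 4 arrays, with the KO arrays slightly below the WT arrays. About 1.04% to 1.08% of genes read above 10 on an array, and whether signal at that height understates a difference was not tested.

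**Figure D2:**
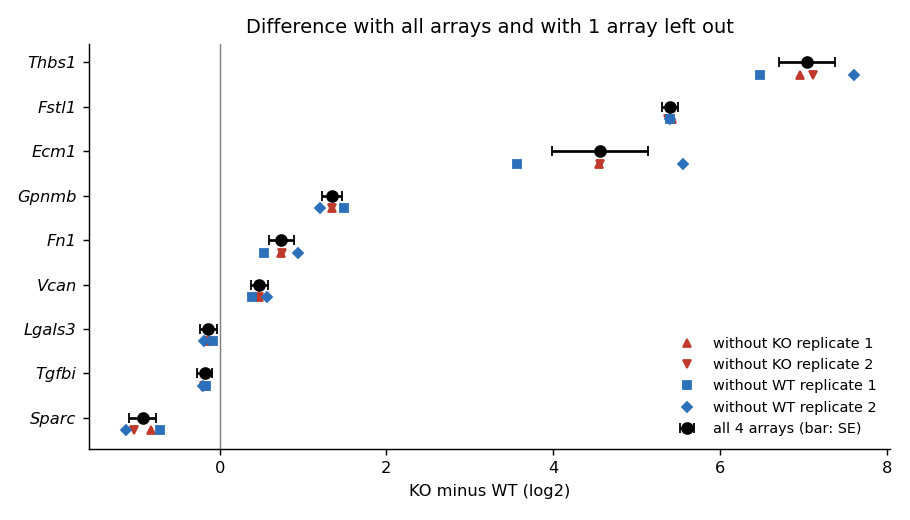
KO minus WT difference on the log2 scale for each gene, with all 4 arrays (black, bar 1 SE) and, just under it, with 1 array left out. No gene changes sign, and the points of Thbs1 and Ecm1 spread most, according to which WT array is left out.

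Set against all genes, the spread of the 9 was wide. Thbs1 held the highest difference of the table, Fstl1 and Ecm1 were among the 25 highest, and Gpnmb ranked 400. Fn1 ranked 856 and Vcan 1427 from the top, and Sparc ranked 483 from the bottom. The ranks describe the choice of the genes and are no result about them.

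**Figure D3:**
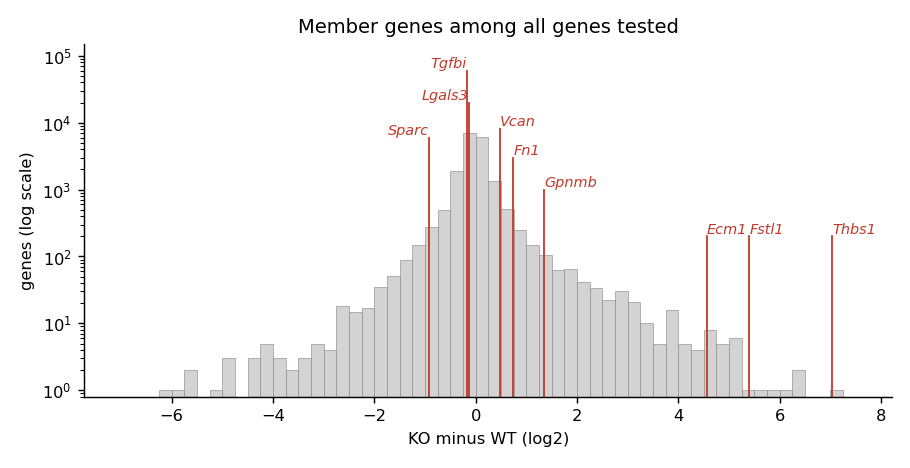
Histogram of the KO minus WT difference (log2) of 18782 genes, with the number of genes on a log axis, and red lines at the 9 genes. Line heights carry no value. Thbs1 stands at the right end and Lgals3 and Tgfbi lie inside the central peak.

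The arrays of each genotype also differed from each other. In 8 of the 9 genes the gap between the WT arrays was wider than that between the KO arrays, beside 9338 of 18782 genes overall. The genes were chosen with their levels in KO and WT known, and all genes were not matched to them for level. A gap may depend on level, so these counts are only a description. The median gap over all genes was 0.12 in either genotype. Ecm1 had the eleventh widest WT gap of all genes, since only 11 genes, Ecm1 included, reached 1.99. Only 80 genes reached the 1.12 of Thbs1. Fn1 (0.41), Ecm1 and Thbs1 were higher in WT replicate 2, as was Vcan (0.18), while Sparc was lower there by -0.41 and Gpnmb by -0.29. Fstl1 moved by no more than 0.05 within either genotype.

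**Figure D4:**
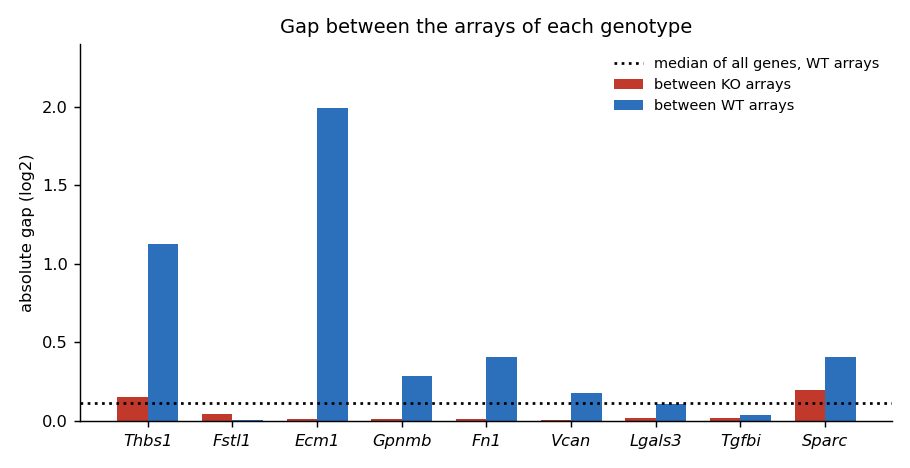
Absolute gap (log2) between the KO arrays, in red, and between the WT arrays, in blue, for each gene. The dotted line is the median gap of all genes between the WT arrays, 0.12. Ecm1 (1.99) and Thbs1 (1.12) stand out in WT, and the widest KO gap is 0.19, in Sparc.

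The WT arrays also differed in other genes, and 10 genes had a wider WT gap than Ecm1. Of these, 5 were higher and 5 lower in WT replicate 2. In 6 of the 10, WT replicate 2 lay nearer to the KO mean than WT replicate 1 did, as in Ecm1 and Thbs1. In the other 4, Pmepa1, Scgb1a1, Alb and Mup20, it lay farther from it. The widest gap was that of Pmepa1, with 8.28 and 7.92 in KO against 8.59 and 4.96 in WT. Next came the scavenger receptor gene Marco, with 3.04 and 3.37 in KO against 7.22 and 4.43 in WT, and then the club cell gene Scgb1a1, with 6.48 and 6.63 in KO against 6.89 and 4.26 in WT. S100a6, a calcium-binding protein gene, read 8.70 and 8.32 in KO, against 4.37 and 6.86 in WT. In sign, the WT gaps of these 10 genes thus ran both ways. Next after Ecm1, in Gpd1, Gpr33, Il6 and Pmp22, WT replicate 2 lay nearer to the KO mean. Among the glycoprotein genes the same held for Fn1, Vcan, Sparc, Tgfbi and Lgals3, but not for Gpnmb and Fstl1. Whether WT replicate 2 lay nearer to KO over all genes was not tested.

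Marker lists of other cell types were read beside the 9 genes, as summed levels on the log2 scale. Of the 13 interstitial macrophage markers 10 were higher in KO and 0 lower, 76.9% past the test beside 14.3% of all genes. Their sum was 11.9 and 11.8 in KO, against 8.30 and 7.85 in WT. Apoe carries much of that sum, and without it, a choice made after the values were seen, the sum was 10.5 and 10.3 in KO, against 6.73 and 6.78 in WT. Of the 10 monocyte markers 5 were higher, 1 was lower and 4 did not pass, a larger share past the test than the 14.3% of all genes. Their sum was 12.2 and 12.2 in KO, against 11.8 and 11.9 in WT. Nr4a1, the brightest of them, did not pass, with 10.74 and 10.71 in KO against 10.63 and 10.72 in WT. It weighs most in the sum, which thus says little of the dimmer genes. The monocyte markers did not move as one. The receptor gene Ccr2 read 7.03 and 6.70 in KO, against 4.49 and 5.58 in WT, while Treml4 read 4.70 and 4.79 in KO, against 7.65 and 6.62 in WT. Of 12 lung epithelial markers 0 were higher in KO and 2 lower, Ager and Cldn18. Their sum was 7.45 and 7.47 in KO, against 7.90 and 6.92 in WT. Of 10 endothelial markers 1 was higher, Vwf, and 0 lower. Of 10 neutrophil markers 1 was higher, S100a8, and 1 lower, Csf3r. Of 8 eosinophil markers 1 was higher, Rnase2a (5.19), and 0 lower. Over all genes, 14.3% passed. The part of other cells in the WT gaps or in the difference between genotypes was not tested.

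Platelets carry much thrombospondin 1, and fibroblasts make fibronectin, versican and SPARC. Of 8 measured platelet markers 1 was higher in KO, 2 were lower and 5 did not pass, 37.5% past the test beside 14.3% of all genes. The higher one was Pf4, with 4.50 and 3.97 in KO against 3.52 and 3.31 in WT, a difference of 0.82 ± 0.19 (SE; limma adjusted p = 0.0353). Ppbp read 2.07 and 2.10 in KO, against 2.24 and 2.20 in WT, under the median of all probe sets. The lower ones were Clec1b, with 4.60 and 5.10 in KO against 6.06 and 6.67 in WT, and Gp5, with 3.09 and 3.34 in KO against 5.00 and 4.25 in WT. The platelet sum was 6.60 and 6.67 in KO, against 7.25 and 7.41 in WT. Without Clec1b and Gp5, left out after their values were seen, it turned round, with 6.01 and 5.84 in KO against 5.75 and 5.63 in WT. Leaving out the 2 lower genes favours such a turn by construction, so nothing is read from it. With 1 gene higher and 2 lower, the platelet list gives no single direction to set beside Thbs1. Of the 11 measured fibroblast markers 8 lay under the median of all probe sets on all 4 arrays, and their sum was 6.05 and 6.03 in KO, against 5.99 and 6.26 in WT.

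For 7 of the 9 measured genes a promoter sequence was at hand, from RefSeq on build GRCm38.p6. Thbs1 and Fn1 had no entry. The 250 bases before the start are printed for Fstl1, Ecm1 and Gpnmb, the 3 of these 7 with the largest differences above WT. Those of Sparc, which was lower, are printed beside them for comparison. Fstl1 lies at chr16:37776805-37777054 on the plus strand, Ecm1 at chr3:95739570-95739819 on the minus strand, Gpnmb at chr6:49036268-49036517 on the plus strand and Sparc at chr11:55420081-55420330 on the minus strand. Each is written 5′ to 3′ in the direction of its gene, with capitals for matches to the motifs described next.
Fstl1: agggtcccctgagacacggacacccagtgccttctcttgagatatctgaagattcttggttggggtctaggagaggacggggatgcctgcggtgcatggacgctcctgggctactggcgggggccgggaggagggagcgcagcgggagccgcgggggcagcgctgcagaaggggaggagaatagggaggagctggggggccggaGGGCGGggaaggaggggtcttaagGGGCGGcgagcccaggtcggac
Ecm1: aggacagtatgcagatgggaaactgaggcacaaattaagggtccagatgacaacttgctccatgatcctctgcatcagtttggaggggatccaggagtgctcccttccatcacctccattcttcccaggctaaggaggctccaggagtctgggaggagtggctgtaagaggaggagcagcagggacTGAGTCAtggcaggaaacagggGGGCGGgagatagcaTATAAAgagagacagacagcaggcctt
Gpnmb: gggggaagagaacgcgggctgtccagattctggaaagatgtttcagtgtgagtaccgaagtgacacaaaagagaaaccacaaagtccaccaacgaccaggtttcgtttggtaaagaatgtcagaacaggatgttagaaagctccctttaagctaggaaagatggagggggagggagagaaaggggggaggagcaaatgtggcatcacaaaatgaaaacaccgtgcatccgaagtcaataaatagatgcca
Sparc: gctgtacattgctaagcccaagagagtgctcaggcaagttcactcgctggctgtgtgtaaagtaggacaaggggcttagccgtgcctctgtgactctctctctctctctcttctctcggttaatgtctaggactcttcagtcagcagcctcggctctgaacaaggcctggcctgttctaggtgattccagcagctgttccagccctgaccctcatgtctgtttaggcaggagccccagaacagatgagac

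The motifs were chosen after the values were seen and were searched on both strands. They were the AP-1 site TGANTCA, the E-box CACGTG, the M-box TCATGTG bound by factors of the MITF family, the TATA box TATAAA, the GC box GGGCGG, and a direct repeat of AGGTCA with 1 base between, the kind of element bound by PPARγ with its partner RXR. Ecm1 held an AP-1 match (64 to 58 bases before the start), a GC box (42 to 37) and a TATA box (27 to 22). Fstl1 held GC boxes at 46 to 41 and at 22 to 17 bases before the start. Gpnmb and Sparc held no match to any of these motifs. Tgfbi, Vcan and Lgals3 also held GC boxes, which makes 5 of the 7 promoters, beside 32.7% of 32851 mouse promoters of the same length. GC content in the Fstl1, Tgfbi, Vcan and Lgals3 windows ran from 62.4% to 68.0%, with 54.0% in Ecm1. The median over all promoters was 52.4%, and the shares were not matched for GC content. The AP-1 site was found in 1 of the 7 and in 6.75% of all, and the TATA box in 1 of the 7 and in 12.4% of all. The repeat of AGGTCA was found in 0 of the 7 and in 0.0335% of all. The GC content of the printed windows ran from 47.2% in Gpnmb to 68.0% in Fstl1, with 54.0% in both Ecm1 and Sparc, so the 3 higher genes did not share a base composition.

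The genes whose 4 values, each taken relative to the gene's own mean, lay nearest to those of each of the 9 were found over 17601 named genes. The measure was the Euclidean distance on the log2 scale over 4 arrays. Nearest to Thbs1 was C1qb, a chain of complement C1q, at a distance of 0.60. Nearest to Fstl1 was C3ar1, the receptor for complement C3a, at 0.22. Nearest to Ecm1 was Pmp22, a membrane protein gene, at 0.28, and Pmp22 shared the wide WT gap with 10.73 and 10.61 in KO, against 4.94 and 6.78 in WT. Runx3 lay nearest to Gpnmb (0.11), Trp53inp1 to Fn1 (0.04), Txnip to Sparc (0.05) and Mlec to Vcan (0.03). Ywhaz lay nearest to Tgfbi and Smu1 to Lgals3, both at 0.01, where many genes crowd. With 4 arrays in 2 genotypes, likeness of this kind mostly restates the size of the difference.

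Relatives of the 9 genes were read in the same fit. Of 33 measured relatives among matricellular and neighbouring matrix genes, 2 were higher in KO and 0 lower, while 31 did not pass, with a median difference of 0.06. The share past the test was 6.06%, beside 14.3% of all genes. Ccn3, a matricellular gene of the CCN family, was higher by 5.07 ± 0.35 (SE; limma adjusted p = 4.74e-04). It read 7.61 and 7.68 in KO, against 1.98 and 3.17 in WT, and like Thbs1 and Ecm1 it was higher in WT replicate 2 than in WT replicate 1. Stab1, a scavenger receptor gene whose product takes up SPARC, was higher by 0.93 ± 0.10 (adjusted p = 0.00179), with 3.40 and 3.41 in KO against 2.51 and 2.44 in WT. No other thrombospondin gene passed. Thbs2 read 2.63 and 2.35 in KO, against 2.49 and 2.22 in WT, and Thbs3 read 5.26 and 4.99 against 4.51 and 4.77. Of the 33 genes, 27 lay under the median of all probe sets on every array, Tnc and Postn among them, so a difference in them may be too small to see. At an unadjusted p under 0.05, 5 of the 33 were higher and 0 lower with limma. The share of all genes at that looser cutoff was not counted, so no tendency of the list is read from this.

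**Figure D5:**
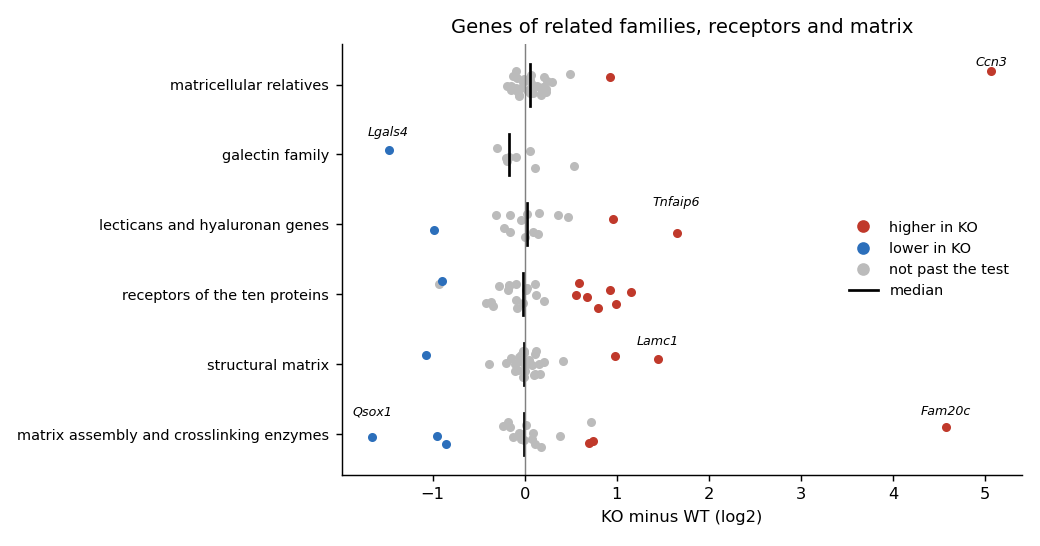
KO minus WT difference (log2) of each measured gene of 6 lists of relatives and partners, in red where higher in KO, in blue where lower and in grey where not past the test. Black ticks are list medians, which lie between -0.17 and 0.06. Ccn3 (5.07) and Fam20c (4.57) lie far to the right.

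Among the 9 measured relatives of galectin 3, 1 was lower in KO, 0 were higher and 8 did not pass, 11.1% past the test beside 14.3% of all genes. Lgals4, an intestinal-type galectin gene, was lower by -1.48 ± 0.12 (SE; limma adjusted p = 7.50e-04), with 3.93 and 3.90 in KO against 5.27 and 5.52 in WT. Lgals1, the most widely made galectin gene, read 9.75 and 9.61 in KO, against 9.84 and 9.72 in WT, with overlapping groups. At an unadjusted p under 0.05, 1 galectin gene was higher and 2 were lower with limma, again without a share of all genes to set beside them. Without WT replicate 2 the count of higher galectin genes was 1.

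Versican works with hyaluronan, and of 15 genes of lecticans and hyaluronan 2 were higher, 1 was lower and 12 did not pass. The share past the test was not far above the 14.3% of all genes, and the difference in share was not tested. Tnfaip6, whose product transfers proteins onto hyaluronan, was higher by 1.65 ± 0.25 (SE; limma adjusted p = 0.00865), with 4.68 and 4.35 in KO against 2.49 and 3.25 in WT. Cemip2, the gene of a membrane protein described as a hyaluronidase, was higher by 0.96 ± 0.20 (adjusted p = 0.0265). Hmmr, a hyaluronan-binding protein gene that follows the cell cycle, was lower by -0.99 ± 0.16 (adjusted p = 0.0101). The hyaluronan synthase genes Has1 and Has2 did not pass. No gene of the list was higher once KO replicate 1 was left out, a count of 0, and leaving out KO replicate 2 left 1.

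Of 25 receptors of these glycoproteins, 7 were higher in KO, 1 was lower and 17 did not pass, 32.0% past the test beside 14.3% of all genes, with a median difference of -0.02. Cd47, the gene of a thrombospondin 1 receptor, was lower by -0.90 ± 0.10 (SE; limma adjusted p = 0.00219), with 8.98 and 9.07 in KO against 9.94 and 9.90 in WT. Cd36, a further thrombospondin 1 receptor and a known PPARγ target, read 9.75 and 9.81 in KO, against 10.31 and 10.08 in WT, and did not pass. Integrin genes were among the higher ones. Itgb7 differed by 1.16 ± 0.19 (adjusted p = 0.011), Itgb5 by 0.67 ± 0.10 (adjusted p = 0.00773) and Itga5, which pairs with Itgb1 to bind fibronectin, by 0.55 ± 0.09 (adjusted p = 0.0121). Itga5 read 8.38 and 8.37 in KO, against 7.82 and 7.82 in WT. Sdc4, a heparan sulfate syndecan gene whose product binds fibronectin and GPNMB, was higher by 0.80 ± 0.14 (adjusted p = 0.0151), and Stab1 is also in this list. Cd44, a receptor gene for osteopontin and hyaluronan, read 9.46 and 9.51 in KO, against 9.93 and 9.73 in WT, and did not pass. Leaving out KO replicate 1 left 2 higher receptors, leaving out KO replicate 2 left 3, and leaving out WT replicate 1 left 4.

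Most structural matrix genes were dim in both genotypes. Of 31 measured, 20 lay under the median of all probe sets on every array. In KO 2 were higher, 1 was lower and 28 did not pass, with a median difference of -0.004. The share past the test was 9.68%, beside 14.3% of all genes. Lamc1, a laminin chain gene, was higher by 1.45 ± 0.12 (SE; limma adjusted p = 7.49e-04), with 5.57 and 5.56 in KO against 3.998 and 4.237 in WT. Emilin2 was higher by 0.98 ± 0.15 (adjusted p = 0.0079) and Emilin1 lower by -1.08 ± 0.12 (adjusted p = 0.00271), so these related elastic fibre glycoprotein genes lay on opposite sides of WT. Without KO replicate 1 only 1 gene was higher. The fibrillar collagen genes Col1a1, Col1a2 and Col3a1 differed by -0.07, 0.07 and -0.02.

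Of 21 genes of enzymes that assemble or crosslink matrix, 3 were higher and 3 lower, while 15 did not pass. The share past the test was 28.6%, beside 14.3% of all genes. Fam20c, a secretory-pathway kinase that phosphorylates osteopontin, was higher by 4.57 ± 0.40 (SE; limma adjusted p = 0.00111), with 8.51 and 8.50 in KO against 3.24 and 4.62 in WT. It too was higher in WT replicate 2 than in WT replicate 1. Qsox1, a secreted sulfhydryl oxidase gene, was lower by -1.66 ± 0.10 (adjusted p = 3.03e-04) and Tgm2, the gene of a transglutaminase that crosslinks fibronectin, by -0.85 ± 0.10 (adjusted p = 0.00285). Tgm2 read 9.27 and 9.33 in KO, against 10.20 and 10.11 in WT. P4ha1, a collagen prolyl hydroxylase gene, was higher by 0.74 ± 0.12 (adjusted p = 0.00906).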

How the data were processed

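Biotin-labelled RNA of sorted alveolar macrophages was hybridised to 4 Affymetrix arrays, 2 KO and 2 WT. The authors deposited a table of log2 values for each probe set. Per the submitters' processing notes, RMA and R 2.15.2 were used. RMA settings and a genome build were not given in the sources used here. The table held 28371 probe sets, of which 21158 carried 1 gene symbol in the platform annotation, 1881 several and 5332 none listed there. Single-symbol probe sets were used, and of several for a gene the one with the highest mean over the 4 arrays, for 18782 genes in all. Intensity was not filtered.

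KO was compared with WT over all genes with limma 3.58.1 in R 4.3.3 (lmFit, eBayes, group as the only term, two-sided), with Benjamini-Hochberg adjustment over all genes and a threshold of 0.05. The number of arrays, 2 per group, limits the precision. The fit had 2 residual and 4.16 prior degrees of freedom. It was tested on simulated data with known changes. The glycoprotein genes and the lists of relatives, receptors and markers were chosen with earlier results of these data known. Genes named from a list are the up to 4 with the smallest p past the test (6 for receptors), or the 2 with the smallest p where none passed, and the rest were picked with their values in view. The replicates are pools of mice labelled as biological replicates. The alternatives were each array left out, the replicate number as a block, quantile normalisation again, dim genes left out, an intensity trend, the mean of a gene's probe sets, all probe sets tested, and arrays shifted to one mean.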

Additional observations from a re-analysis of the deposited data

How the results depend on the processing

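No glycoprotein gene, and no gene named by rule from the lists of relatives and partners, changed sign under any of the 11 alternatives that tested it. The nearest genes, the gate genes, Pparg and the cell type markers were not followed under them. When any 1 array was left out, the genes higher in KO numbered 726 to 1227 and the lower ones 647 to 1057, against 1391 and 1289 with all arrays. For the glycoprotein genes these ranges were 4 to 6 higher, with 4 without KO replicate 1, without KO replicate 2 or without WT replicate 1, and 0 to 1 lower. For the lists they were 0 to 1 higher galectin genes, 0 to 2 higher hyaluronan genes, 2 to 6 higher and 1 to 2 lower receptors, and 1 to 2 higher structural genes. Under an intensity trend 2 glycoprotein genes met the rule as lower, Sparc and Tgfbi, and 5 as higher, Vcan no longer among them, and there were 1 higher and 2 lower galectin genes and 7 lower receptors. With dim genes left out Vcan was not tested, 1 matricellular relative was higher and 3 receptors were lower. With the replicate number as a block, 2 receptors were lower, 6 glycoprotein genes were higher and 1 was lower. The correlation between same-numbered arrays of their deviations from the group means was -0.02 over genes, so no shift shared by same-numbered arrays was seen. With 2 arrays per genotype this cannot tell whether same-numbered pools were handled together. Quantile normalisation again, the mean of probe sets, all probe sets tested and arrays shifted to one mean left the counts of glycoprotein genes at 6 and 1. Leaving out an array leaves fewer arrays by construction; otherwise the cause of these changes was not tested. A fit with 1 array in a genotype takes the spread from the other genotype.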
